A study of Mus musculus with 22 samples.

Results

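The genes described here are 10 that carry MHC class I antigen presentation and cross-presentation: Tap1, Tap2, Tapbp, Tapbpl, Psmb8, Psmb9, Psmb10, B2m, Wdfy4 and Sec22b. They were chosen by name, 10 of 34047 genes in the count table, and all 10 were measured above the filter on low counts in every fit. At their loci lay 79 of 177956 windows of 150 bases around summits of accessible chromatin, in 25 of 74217 peaks. RNA was sequenced from conventional dendritic cells (cDC) of Tbx21RFP-cre mice, in which the T-bet locus drives a red fluorescent protein and Cre recombinase, so every group carries this knock-in. The mice were 6 to 10 weeks old and of both sexes. Cells negative for a panel of surface markers that included CD3, CD90, CD64 and Ly6C and positive for CD11c and MHC class II were sorted into XCR1+ cDC1, and into CD11b+ cDC2 with the reporter (T-bet+) or without it (T-bet-). From spleen there were 3 RNA libraries of each subset, and from mesenteric lymph node (MLN) 3 of cDC1 and 2 of each cDC2 subset, each pooling cells of 2 mice. ATAC-seq, which reads open chromatin from where a transposase can cut, had 2 libraries of 50000 spleen cells of each subset. The labels do not say whether libraries of a group came from separate sorts, so p-values measure only the spread between these libraries.

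MHC class I molecules show peptides from inside the cell to CD8+ T cells. The proteasome cuts proteins into peptides, the TAP transporter moves them into the endoplasmic reticulum (ER), tapasin holds the empty class I heavy chain beside TAP while a peptide is selected, and beta-2 microglobulin completes the complex. Dendritic cells can also load class I with peptides of material they have taken up, which is called cross-presentation, and cDC1 are known for it. Several of these genes are induced by interferon through an element in their promoters, the ISRE.

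RNA depth was 20993220 to 29006549 counts per library, and the 10 genes held 0.712% to 1.26% of them in spleen and 1.13% to 2.22% in MLN. The subset markers followed the labels: in CPM (counts per 1000000, after scaling for library size and composition), 6 cDC1 markers summed to 1150 to 2800 in cDC1 and 78.6 to 210 in cDC2, 5 cDC2 markers to 12.5 to 53.1 against 462 to 2980, and Tbx21 read 17.2 to 24.9 in spleen T-bet+ and 2.93 to 7.19 in MLN T-bet+ cDC2 against at most 2.38 elsewhere. The 4 markers of all conventional dendritic cells summed to 12700 to 28700 in spleen and 5330 to 13200 in MLN, and those of plasmacytoid dendritic cells to 98.6 to 248 CPM. Markers of NK cells summed to 0 to 0.53 and of monocytes or macrophages to 12.4 to 24 in cDC1 and 214 to 775 in cDC2. Those of neutrophils summed to 9.01 to 14.8 in spleen cDC1, 33.7 to 57.2 in spleen cDC2 and 0 to 3.6 in MLN, and those of T cells to 0.387 to 2.41 in spleen and 2.48 to 9.95 in MLN. The part of these cells in the differences was not tested. In 3 spleen libraries, T-bet- 1 and 2 and cDC1 3, GC-rich genes read lower than in the other 6 (Spearman correlation across genes of -0.46 to -0.30 against 0.19 to 0.32). MLN T-bet+ 1 and MLN cDC1 1 stood apart in markers of mature migratory dendritic cells (Ccr7, Fscn1, Il4i1, Cacnb3 and Ccl22), as given with the tissue comparison.

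The sequences that follow show the interferon element, searched as GAAANNGAAA on both strands, in 30 bases of each matching window at these loci, read in the direction of the motif from the GRCm38 genome of NCBI. Capitals mark the matched letters.
Psmb9, upstream of Tap1, chr17:34186985-34187014, plus strand: agtctagagtGAAAGCGAAAgcgctttgga
Overlap of Psmb9 and Tap1, chr17:34187688-34187717, minus strand: agaggaagaaGAAACCGAAAgccgacctcg
Psmb8, chr17:34198335-34198364, minus strand: acaaggaagtGAAAGCGAAAgccacagtac
Tap2, chr17:34204491-34204520, plus strand: gcagtgaagtGAAAGCGAAAgccgcgggac
Tapbp, chr17:33919616-33919645, plus strand: ctcaccccagccttagaagGAAAATGAAAg
Tapbpl, chr6:125231718-125231747, minus strand: ttgaagtGAAAGTGAAAGAGAAAcgataag
Psmb10, chr8:105938109-105938138, minus strand: gggtgggggtGAAAGCGAAAgtaggaagcg
Psmb10, chr8:105938156-105938185, minus strand: GAAAGTGAAAgagaagatgcacacagcagc
Wdfy4, chr14:33160491-33160520, plus strand: catggaccaaGAAAAGGAAAagcagatagg

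The Tapbpl stretch holds 2 overlapping matches. Of the 79 windows at these loci 8 held a match, against 2.39% of all 177956 windows. All but the Wdfy4 match lay within 2000 bases of an annotated transcript start, and the Wdfy4 match lay in an intron 25002 bases into the gene. No window at B2m or Sec22b held these letters, which says nothing about binding there.

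The transporter genes were higher in spleen cDC1 than in both cDC2 subsets. Tap1 and Tap2 encode the paired chains of the TAP transporter and lie on chromosome 17, at 34187553-34197225 and 34203527-34216321 of GRCm38, plus strand. In replicate order, Tap1 read 973, 850 and 859 CPM in spleen cDC1, 392, 335 and 442 in T-bet+ cDC2 and 214, 257 and 483 in T-bet- cDC2. The 3 cDC1 libraries lay above all 6 cDC2 libraries, and T-bet- replicate 3 stood above its own group. The log2 fold change was 1.19 against T-bet+ (SE 0.29, 95% interval 0.55 to 1.84, edgeR adjusted p = 0.018) and 1.49 against T-bet- cDC2 (SE 0.29, 0.84 to 2.14, adjusted p = 0.00713). Tap2 read 624, 567 and 723 CPM in cDC1, 308, 271 and 279 in T-bet+ and 276, 283 and 291 in T-bet- cDC2. The 2 cDC2 subsets overlapped within a narrow range. Tap2 differed by 1.15 (SE 0.16, edgeR adjusted p = 0.001) and 1.17 (SE 0.16, adjusted p = 0.00102), with the tightest errors among the called genes.

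Of the 2 peptide editors, tapasin did not pass the test between subsets and its relative did. Tapbp, which encodes tapasin (chromosome 17, 33915899-33929292, plus strand), read 1370, 1180 and 1500 CPM in spleen cDC1, 896, 915 and 946 in T-bet+ and 816, 956 and 1170 in T-bet- cDC2. All 3 cDC1 values lay above the cDC2 values, 1 of them barely. The differences were 0.55 (edgeR adjusted p = 0.0586) and 0.46 (adjusted p = 0.118). Tapbpl encodes the tapasin-related editor TAPBPR, which acts outside the loading complex (chromosome 6, 125223933-125231860, minus strand). It read 186, 164 and 202 CPM in spleen cDC1, 74.4, 62.3 and 73.9 in T-bet+ and 92.1, 73.6 and 84.2 in T-bet- cDC2, with no overlap between cDC1 and cDC2. The log2 fold change was 1.39 (SE 0.19, 95% interval 0.96 to 1.82, edgeR adjusted p = 0.000876) against T-bet+ and 1.15 (SE 0.19, 0.72 to 1.57, adjusted p = 0.00283) against T-bet- cDC2.

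The 3 catalytic subunits that replace their constitutive partners in the immunoproteasome did not move together. Psmb9 (chromosome 17, 34181987-34187764, minus strand) encodes the subunit that takes the place of Psmb6. It read 993, 698 and 852 CPM in spleen cDC1, 540, 478 and 525 in T-bet+ and 350, 450 and 297 in T-bet- cDC2, so the 3 subsets formed 3 separate ranges. Psmb9 was higher in cDC1 by 0.72 (SE 0.20, edgeR adjusted p = 0.0376) against T-bet+ and 1.21 (SE 0.21, adjusted p = 0.00344) against T-bet- cDC2. With the replicate number as a block the first was 0.71 and no longer called (adjusted p = 0.0954). Psmb8 (chromosome 17, 34197721-34201454, plus strand), the partner of Psmb5, read 1520, 1040 and 1310, 899, 858 and 926, and 739, 1140 and 691 CPM in the same order of subsets. One T-bet- library lay within the cDC1 range. Its differences of 0.53 and 0.59 did not pass (edgeR adjusted p = 0.149 and 0.116). Psmb10 (chromosome 8, 105935735-105938444, minus strand), the partner of Psmb7, read lowest in cDC1, at 207, 132 and 173 CPM, against 263, 230 and 275 in T-bet+ and 259, 443 and 193 in T-bet- cDC2. The differences of -0.59 and -0.81 did not pass either (edgeR adjusted p = 0.234 and 0.113).

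Set against its constitutive partner per length (RPKM, counts per kilobase of exon scaled for depth), Psmb9 and Psmb8 read highest and Psmb10 lowest in spleen cDC1. In spleen the Psmb9 to Psmb6 ratio was 0.603 to 0.847 in T-bet-, 1.00 to 1.14 in T-bet+ and 1.69 to 1.89 in cDC1. The Psmb8 to Psmb5 ratio was 1.39 to 1.79, 1.60 to 1.77 and 2.16 to 2.38. The Psmb10 to Psmb7 ratio was 6.27 to 9.84, 6.78 to 8.67 and 2.70 to 3.87. For all 3 ratios the cDC1 range lay apart from both cDC2 ranges. The ratios were not tested, and how many other pairs of genes lie apart in this way was not counted. In MLN the Psmb10 to Psmb7 ratio was again lowest in cDC1, at 3.13 to 3.24 against 5.39 to 9.01, while the ranges of the Psmb8 to Psmb5 ratio were 2.57 to 2.99 in cDC1 and 2.19 to 3.48 in the cDC2 subsets. The Psmb9 to Psmb6 ranges in MLN overlapped too, at 1.54 to 1.91 in cDC1 and 1.26 to 1.65 in cDC2. Of the partners themselves, Psmb7 was higher in spleen cDC1 than in T-bet+ cDC2 by 0.74 (SE 0.23, edgeR adjusted p = 0.0492). Psmb5 and Psmb6 gave 0.12 and -0.01 in that comparison (adjusted p = 0.818 and 0.981).

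B2m went the other way from the TAP genes. It encodes beta-2 microglobulin, the light chain of every class I molecule (chromosome 2, 122147686-122153083, plus strand). It read 2970, 2420 and 3320 CPM in spleen cDC1, 3500, 3930 and 4270 in T-bet+ and 6140, 5820 and 4440 in T-bet- cDC2. The 3 subsets formed separate ranges, lowest in cDC1. B2m was lower in cDC1 than in T-bet- cDC2 by a log2 fold change of -0.91 (SE 0.18, 95% interval -1.32 to -0.51, edgeR adjusted p = 0.00764), while -0.43 against T-bet+ cDC2 did not pass (adjusted p = 0.14). Per length it remained the most abundant of the 10 in all 6 groups of tissue and subset, with group means of 3380 to 9990 RPKM. In spleen cDC1 it was followed by Psmb8 at 382 ± 72 (SD, n = 3) and Tapbp at 371 ± 44.3, which did not differ beyond their spread. Psmb9 at 232 ± 40.2 lay below them, and Wdfy4 at 205 ± 138, Tap2 at 169 ± 20.9 and Tap1 at 163 ± 12.5 followed, with no neighbours in this order apart beyond their spread. Psmb10 at 100 ± 22 and Tapbpl at 78.4 ± 8.1 lay lower and overlapped each other, and Sec22b at 23.3 ± 3 was lowest.

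Wdfy4 had the largest change between subsets of the 10 and the widest spread within one. It encodes a large BEACH-domain protein required for cross-presentation of cell-associated antigen by cDC1 (chromosome 14, 32959547-33185508, minus strand). In spleen it read 878, 1880 and 3740 CPM in cDC1, 481, 489 and 546 in T-bet+ and 565, 373 and 164 in T-bet- cDC2. All cDC1 values lay above all cDC2 values, but the highest and lowest cDC1 libraries differed more than the lowest cDC1 library did from any T-bet+ library. The log2 fold change was 2.1 (SE 0.54, 95% interval 0.89 to 3.31, edgeR adjusted p = 0.024) against T-bet+ and 2.56 (SE 0.55, 1.33 to 3.79, adjusted p = 0.0114) against T-bet- cDC2. With the replicate block neither was called, at 2.05 (adjusted p = 0.0758) and 2.47 (adjusted p = 0.0558). Sec22b encodes an ER-Golgi SNARE reported to bring ER membrane to phagosomes (chromosome 3, 97901190-97923276, plus strand). Its values were 79.6, 96.1 and 103 CPM in spleen cDC1, 80.5, 98.0 and 87.1 in T-bet+ and 105, 73.4 and 80.9 in T-bet- cDC2, and the 3 ranges overlapped. It differed between cDC1 and T-bet+ cDC2 by 0.06, with a 95% interval of -0.41 to 0.54 (edgeR adjusted p = 0.887), and its highest library was 1.5 times its lowest over all 16, against 22.8 times for Wdfy4 and 14.1 times for Tapbpl.

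**Figure D1:**
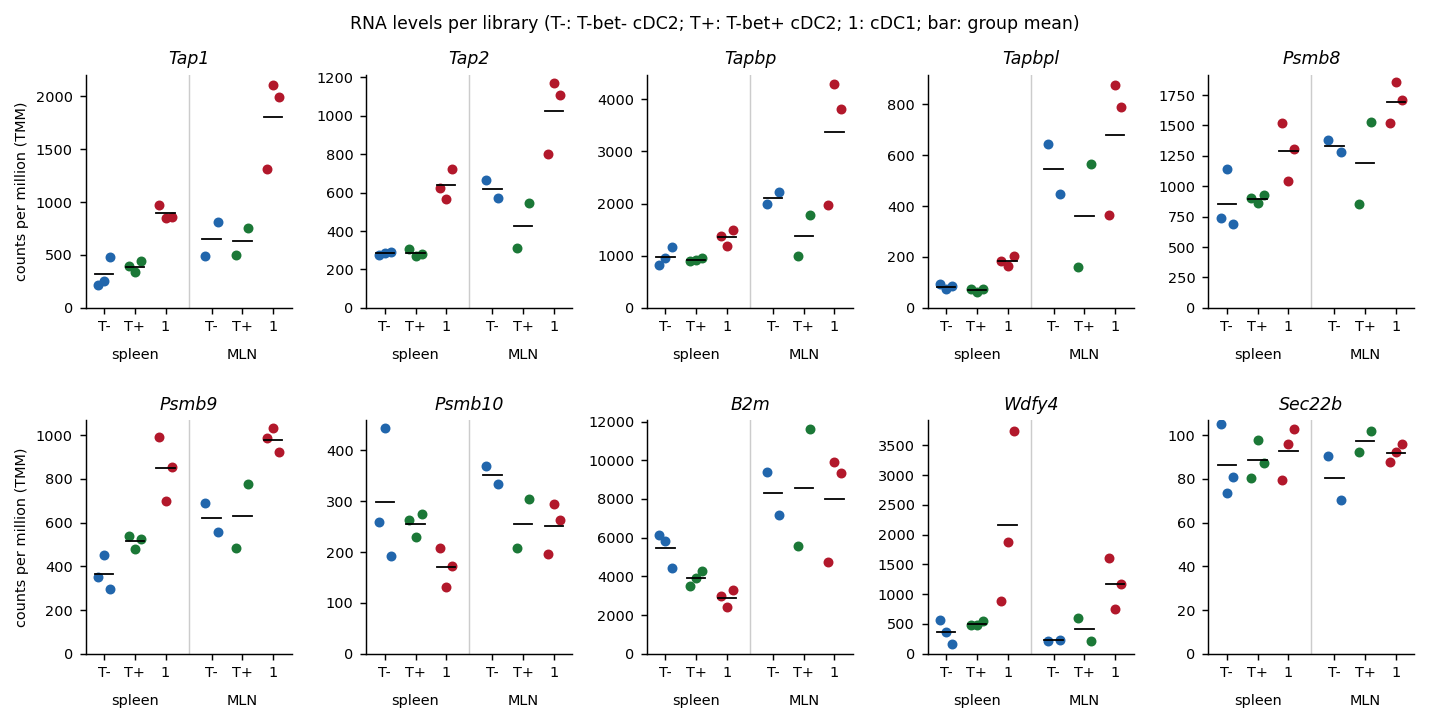
Level of each of the 10 genes in every RNA library, 1 panel a gene (vertical axis, CPM; horizontal axis, subset within spleen and MLN; points, libraries; bars, group means). Spleen cDC1 lay above all spleen cDC2 libraries for Tap1, Tap2, Tapbp, Tapbpl, Psmb9 and Wdfy4 and below them for B2m. How many of all genes do so was not counted. Sec22b stayed between 70.2 and 105 CPM in all 16 libraries.

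Counted over the 10, 5 were called in spleen cDC1 against T-bet+ cDC2 (edgeR, adjusted p under 0.05 over all genes), where 18.2% of all 14377 genes tested were called. All 5, Tap1, Tap2, Tapbpl, Psmb9 and Wdfy4, were higher in cDC1, a direction taken by 8.2% of all genes, and the median log2 fold change was 0.63 over the 10 and -0.03 over all genes. The replicate block left 3 of them called, Tap1, Tap2 and Tapbpl. Against T-bet- cDC2 6 were called, the same 5 higher and B2m lower, where 15.9% of all genes were called and 6.2% were called higher in cDC1. The medians were 0.87 over the 10 and 0.01 over all genes. These comparisons share the cDC1 libraries. Between T-bet+ and T-bet- cDC2 none of the 10 was called by edgeR or by DESeq2, where 5.38% of all genes were called. At an unadjusted p under 0.05 there were 2, B2m at -0.49 (edgeR adjusted p = 0.18) and Psmb9 at 0.49 (adjusted p = 0.234), whose ranges did not overlap in either case.

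The differences from T-bet- cDC2 were also taken within libraries of like GC bias, with 1 library on a side each time. The part of GC bias in them was not tested. In the libraries where GC-rich genes read higher (2 cDC1, 1 T-bet-) and lower (1 cDC1, 2 T-bet-), the log2 ratios of means were 0.92 and 1.87 for Tap1, 1.03 and 1.37 for Tap2, 1.06 and 1.29 for Tapbpl, 1.51 and 1.09 for Psmb9, 3.07 and 3 for Wdfy4 and -0.72 and -0.85 for B2m. The genes not called gave 0.12 and 0.76 for Tapbp, 0.89 and 0.48 for Psmb8, -0.19 and -1.02 for Psmb10 and 0.12 and 0.2 for Sec22b. All T-bet+ libraries were of the kind where GC-rich genes read higher. There the ratios of cDC1 to them were 1.23, 1.06, 1.32, 0.72 and 1.45 for Tap1, Tap2, Tapbpl, Psmb9 and Wdfy4. Tap1 was no longer called against T-bet+ cDC2 without T-bet+ replicate 1 or 2 (highest edgeR adjusted p = 0.0774), nor was Wdfy4 without any 1 T-bet+ library or cDC1 replicate 3 (highest 0.0851), and Psmb9 was lost without any 1 T-bet+ library, cDC1 replicate 1 or 3 or with no filter (highest 0.126). Against T-bet- cDC2, a single fit of all 16 libraries ended the calls of B2m (adjusted p = 0.0588) and Tapbpl (0.066).

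In MLN the same 5 genes had their highest means in cDC1, with fewer libraries and wider spread. So did Tapbp and Psmb8, which were not called in spleen. How many of all genes do so was not counted. In replicate order Tap1 read 1310, 2110 and 1990 CPM in MLN cDC1, 496 and 758 in T-bet+ and 491 and 814 in T-bet- cDC2. Tap2 read 802, 1170 and 1110 in cDC1, 309 and 545 in T-bet+ and 666 and 573 in T-bet- cDC2. For both genes every cDC1 library lay above every cDC2 library. Tapbpl read 366, 877 and 791 in cDC1, 159 and 564 in T-bet+ and 645 and 449 in T-bet- cDC2, so its groups overlapped in MLN. Wdfy4 read 1610, 759 and 1170 in cDC1, 603 and 212 in T-bet+ and 220 and 237 in T-bet- cDC2, with no overlap.

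Against MLN T-bet- cDC2, 1 of the 10 was called (5.79% of all 15298 genes tested): Wdfy4, at 2.32 (SE 0.53, 95% interval 1.08 to 3.55, edgeR adjusted p = 0.0463). That call was lost without any 1 of the cDC1 or T-bet- libraries and with a replicate block or a term for the GC kind of library (highest adjusted p = 0.305). Against MLN T-bet+ cDC2 none was called (6.22% of all genes), with 4 at an unadjusted p under 0.05. They were Tap1 at 1.48 (95% interval 0.63 to 2.33, edgeR adjusted p = 0.0555), Tap2 at 1.23 (0.0786), Tapbp at 1.24 (0.131) and Wdfy4 at 1.52 (0.131), and DESeq2 called these 4. Between the MLN cDC2 subsets 0 of the 10 were called by edgeR or DESeq2 and 0 reached an unadjusted p under 0.05, where 0% of all genes were called. The difference between tissues was tested directly for each subset contrast: 0 of the 10 were called by edgeR or DESeq2 in any of the 3, and none reached an unadjusted p under 0.05, with estimates from -0.86 to 0.84. Of all 16795 genes 0.0893%, 0.0357% and 0.00595% were called for cDC1 against T-bet+, cDC1 against T-bet- and T-bet+ against T-bet- cDC2.

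**Figure D2:**
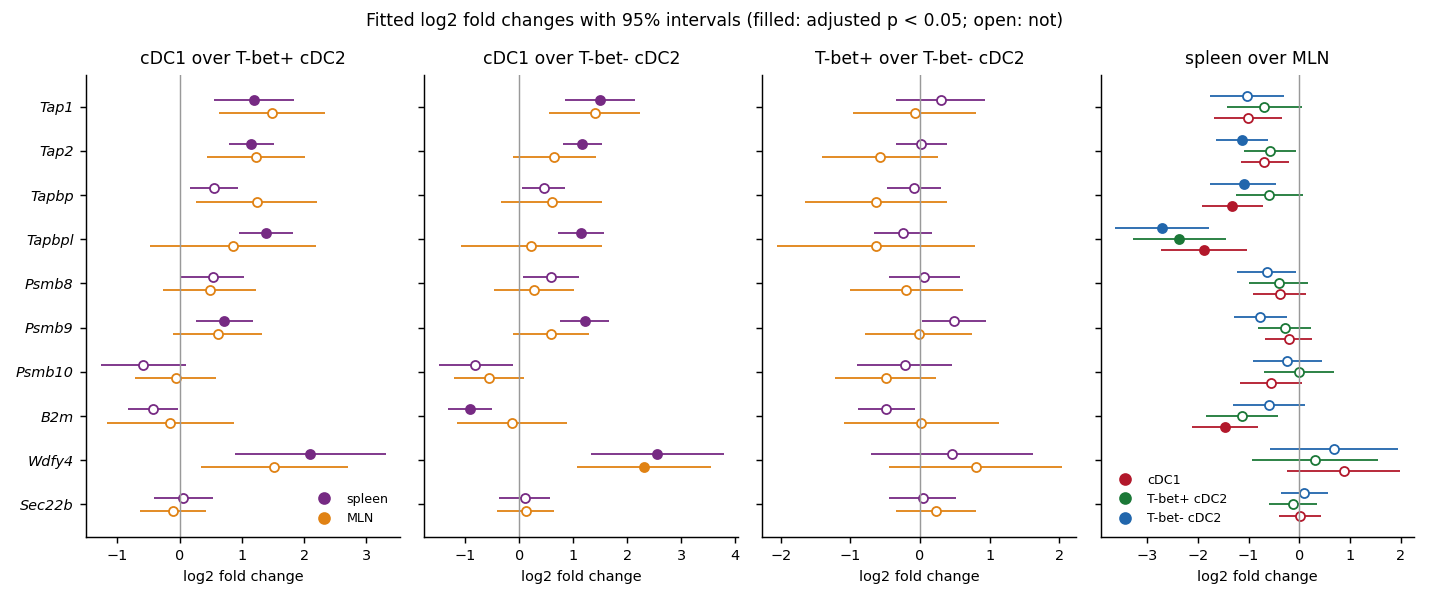
Log2 fold change of each gene with its 95% interval (horizontal axis) in the subset comparisons of spleen and MLN and between tissues within each subset, from edgeR, with called values marked. The spleen cDC1 intervals of Tap2 (0.79 to 1.52 against T-bet+ cDC2) are narrow and those of Wdfy4 (0.89 to 3.31) wide, and the Sec22b intervals span 0.

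Spleen and MLN differed most for Tapbpl. It read 62.3 to 202 CPM in the 9 spleen libraries and 159 to 877 in the 7 of MLN, and was lower in spleen by log2 fold changes of -1.88 in cDC1 (SE 0.40, edgeR adjusted p = 0.0101), -2.71 in T-bet- (SE 0.43, adjusted p = 0.00386) and -2.37 in T-bet+ cDC2 (SE 0.43, adjusted p = 0.00981). Within every subset the ranges of the 2 tissues lay apart. Tapbp was lower in spleen cDC1 by -1.32 (SE 0.28, edgeR adjusted p = 0.0109), its MLN values being 1970, 4300 and 3820 CPM, and in T-bet- cDC2 by -1.10 (SE 0.31, adjusted p = 0.0484), with 2000 and 2220 CPM in MLN. MLN T-bet+ cDC2 gave 988 and 1780 CPM, the first of them close to the spleen libraries. B2m was lower in spleen cDC1 by -1.46 (SE 0.30, edgeR adjusted p = 0.00982), with 4750, 9890 and 9320 CPM in MLN, and Tap2 was lower in spleen T-bet- cDC2 by -1.13 (SE 0.24, adjusted p = 0.0154). B2m gave 5580 and 11600 in MLN T-bet+ and 9420 and 7170 CPM in MLN T-bet- cDC2, and its T-bet+ difference of -1.14 did not pass (edgeR adjusted p = 0.059).

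In all, 3, 3 and 1 of the 10 were called in cDC1, T-bet- and T-bet+ cDC2, where 11.7%, 5.95% and 5.09% of all genes were called. All of these calls were lower in spleen, as were 7.75%, 4.36% and 3.79% of all genes, and the medians over the 10 were -0.62, -0.70 and -0.49 against -0.01, 0.04 and 0 over all genes. The immunoproteasome subunits, Sec22b and Wdfy4 were called in none of the 3. Psmb8 gave 1520, 1860 and 1710 CPM in MLN cDC1, 853 and 1530 in T-bet+ and 1380 and 1280 in T-bet- cDC2. Psmb9 gave 988, 1030 and 921, 482 and 774, and 688 and 555 in the same order, and Psmb10 197, 294 and 263, 208 and 304, and 369 and 334. These values lay close to or above those of spleen. In T-bet- cDC2 the Psmb8 and Psmb9 ranges of the 2 tissues lay apart. The spleen values were lower there by -0.64 and -0.77, not called (edgeR adjusted p = 0.168 and 0.0784). Sec22b gave 87.9, 92.1 and 96.1, 92.3 and 102, and 90.7 and 70.2 CPM, within its spleen range or next to it.

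Markers of mature migratory dendritic cells summed higher in MLN than in spleen within each subset, except in MLN T-bet+ replicate 1. The 5 genes summed to 1520 to 2610 CPM in spleen cDC1, 3680 to 5000 in spleen T-bet- and 4200 to 4820 in spleen T-bet+ cDC2. Il4i1 was at 0 to 3 counts in the spleen cDC1 libraries, and Ccr7 gave most of the sum there, at 1250 to 2230 CPM. In MLN they summed to 11900 to 13000 in T-bet- cDC2, to 2880 and 10700 in T-bet+ replicates 1 and 2, and to 4060 in cDC1 replicate 1 and up to 14800 in the others. The 2 MLN libraries low in these markers were the lowest of their groups for Tap1, Tap2, Tapbp, Tapbpl, Psmb8, Psmb10, B2m and Sec22b as well, and the highest for Wdfy4. How many of all genes were lowest in both was not counted, and in a group of 2 libraries 1 is always the lowest. MLN T-bet+ 1 had a lower sum than any spleen cDC2 library, and its Tapbpl of 159 CPM lay above their 62.3 to 92.1. That is 1 library. Within spleen, cDC1 had the lowest sums and the highest Tap1, Tap2 and Tapbpl. Other markers moved with tissue too: 3, 1 and 1 of 4 T cell markers were lower in spleen in cDC1, T-bet- and T-bet+ cDC2, and 1, 2 and 2 of the 3 neutrophil markers tested were higher. Over all genes 7.75%, 4.36% and 3.79% were called lower in spleen and 3.93%, 1.59% and 1.3% higher. The 2 MLN libraries low in mature markers were also left out, a choice made after the values were seen. Then 5 of the 10 were called lower in spleen cDC1 and 4 in spleen T-bet+ cDC2. In MLN 4 were called higher in cDC1 than in T-bet- cDC2 (Tap1, Tap2, Tapbp and Wdfy4). Leaving out the lowest library of a group raises its mean, and no share of all genes called is given for this refit. The part of mature migratory dendritic cells, T cells and neutrophils in the tissue difference was not tested. In bulk RNA fewer cells of a type and less RNA per cell cannot be told apart. Without MLN T-bet+ replicate 2 the Tapbpl difference in T-bet+ cDC2 was -1.17 (edgeR adjusted p = 0.312), and without spleen cDC1 replicate 1 or 2 none of the cDC1 calls was kept. In T-bet- cDC2 the Tap2 call was lost without either MLN library or spleen replicate 1 or 2 (highest adjusted p = 0.161), and that of Tapbp in 12 of 22 alternatives (highest 0.209), while Tapbpl was called in all 22.

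**Figure D3:**
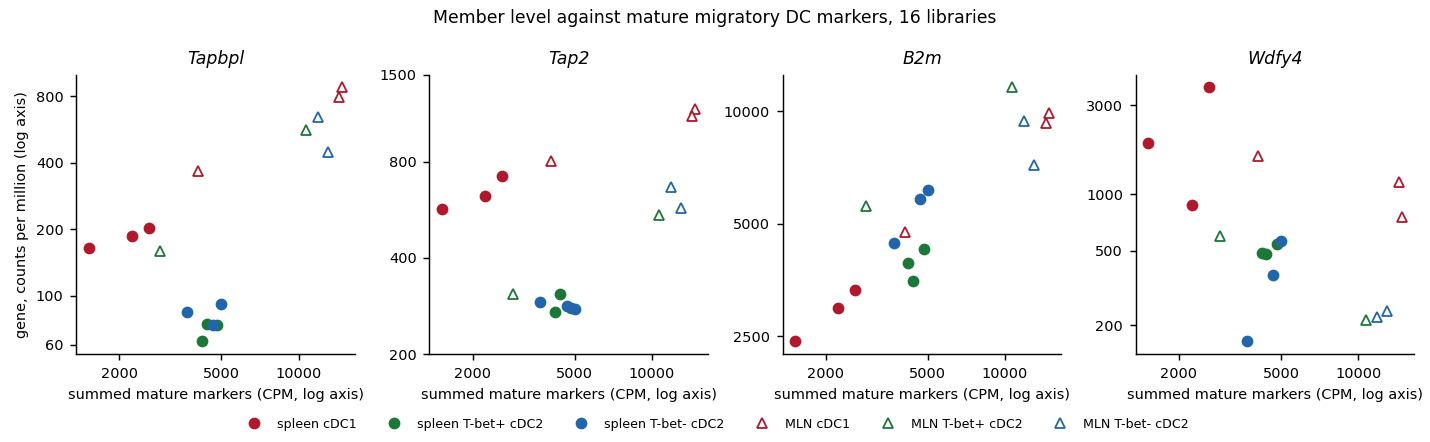
Level of Tapbpl, Tap2, B2m and Wdfy4 in each RNA library (vertical axes, CPM, log scale) against the summed level of 5 markers of mature migratory dendritic cells (horizontal axis, CPM, log scale). MLN T-bet+ replicate 1 (2880 on the horizontal axis) and MLN cDC1 replicate 1 (4060) lie among the spleen libraries on that axis.

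Over the 16 libraries, the genes most like each of the 10 were found by Pearson's r of log2 levels, given as a description because libraries of 1 tissue and subset share their profile. Tapbpl had the closest companions, Apol10b (r = 0.991), Cd200 (0.988) and Il15 (0.987), and Tap2 followed with Hc (0.977), Dlgap4 (0.975) and Mab21l3 (0.972). Psmb8 and Psmb9 had Psme1, a subunit of the PA28 proteasome activator, among theirs (0.969 and 0.934). For Tap1 the nearest was Fcho1 (0.952), for Tapbp Ttc39aos1 (0.973), for Psmb10 Nat9 (0.966) and for Wdfy4 Polr1a (0.907). Sec22b had the weakest likeness, at most 0.871 with Rbm44, and for B2m Plgrkt reached 0.966 and Samhd1 0.962. Among the 10 themselves Tap1, Tap2, Tapbp, Tapbpl, Psmb8 and Psmb9 were alike (r of 0.7 to 0.93 between pairs), whereas Psmb10 and Wdfy4 ran in opposite directions (-0.62). Tap1 and Psmb9 lie head to head and share 212 exon bases on opposite strands, and Tapbp shares 149 exon bases with Zbtb22. The strand setting of the counting was not given in the sources used here, so reads of these bases cannot be assigned with certainty.

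Class I heavy chains pair with B2m. Of 10 class I heavy chain genes 0 were called in spleen cDC1 against T-bet+ cDC2 by edgeR or DESeq2 (4 at an unadjusted p under 0.05), and 1 was lower against T-bet- cDC2, the non-classical H2-T24 at -1.14 (SE 0.32, edgeR adjusted p = 0.0385), with list medians of -0.15 and -0.19. H2-K1, chosen with H2-Q4 after the values were seen, read 3310, 2460 and 2550 CPM in spleen cDC1 and 2150 to 4540 in the cDC2 libraries, and its differences of -0.59 and -0.23 did not pass (adjusted p = 0.119 and 0.561). Between tissues, 7, 3 and 1 of these 10 were lower in spleen in cDC1, T-bet- and T-bet+ cDC2, with medians of -1.42, -0.87 and -0.62. The shares of all genes called lower in spleen were 7.75%, 4.36% and 3.79%. In cDC1 H2-K1 was lower by -1.51 (SE 0.35, adjusted p = 0.0159) and H2-Q4 by -2.26 (SE 0.41, adjusted p = 0.00493). Class I heavy chains are near-identical copies, so the split of reads among them is uncertain. Of 3 class I-like chains 2 were higher in spleen cDC1 than in T-bet+ cDC2: Fcgrt, which encodes the neonatal Fc receptor, by 1.35 (SE 0.21, adjusted p = 0.00181), and Cd1d1, which presents lipids, by 1.47 (SE 0.21, adjusted p = 0.00119). Against T-bet- cDC2 Cd1d1 alone was called, at 1.96 (adjusted p = 0.000236), and Fcgrt gave 0.04 (adjusted p = 0.923). Mr1, which presents vitamin metabolites, did not pass against T-bet+ cDC2 at -1.39 (adjusted p = 0.227).

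In the pathway around the proteasome and the ER, 1 of 11 shared 20S core subunits, Psma4, was higher in spleen cDC1 than in T-bet+ cDC2 (0.68, edgeR adjusted p = 0.0377), and of 9 activators and assembly factors only Pomp was, a chaperone of proteasome assembly (0.94, adjusted p = 0.0226). Against T-bet- cDC2 edgeR and DESeq2 called 0 of either list, with 2 of each at an unadjusted p under 0.05. Of 6 genes of ER folding and peptide trimming, 3 were higher in spleen cDC1 than in T-bet+ cDC2: calreticulin (Calr, 1.56, SE 0.23), BiP (Hspa5, 1.40, SE 0.18) and calnexin (Canx, 1.24, SE 0.27). All 6 reached an unadjusted p under 0.05 there, and DESeq2 called 5. Against T-bet- cDC2 edgeR called Hspa5 alone, at 0.81 (SE 0.18, adjusted p = 0.0138), and DESeq2 called 3 of the 6. Of 9 other ER-Golgi SNAREs edgeR called 0 in either comparison, with 3 and 1 at an unadjusted p under 0.05, list medians of 0.21 and 0.07, and 1 and 0 called by DESeq2.

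Of 10 regulators of class I genes, 2 were higher and 1 lower in spleen cDC1 than in T-bet+ cDC2. Irf8, a transcription factor that cDC1 depend on, read 4030, 3860 and 2700 CPM in cDC1 and 50.6 to 76.2 in T-bet+ cDC2 (5.80, SE 0.43, edgeR adjusted p = 2.2e-05). Nlrc5, the class I transactivator, read 48.2, 118 and 242 in cDC1 and 28.4 to 37.5 in T-bet+ cDC2 (2.02, SE 0.54, adjusted p = 0.0288), but its difference from T-bet- cDC2 of 0.90 did not pass (adjusted p = 0.309). Rfxank, a subunit of the RFX complex at MHC promoters, was lower by -1.16 and -1.12 (adjusted p = 0.0259 and 0.0335). Irf1, an activator at interferon elements, gave 0.28 and 0.09 and did not pass (adjusted p = 0.493 and 0.849). Between tissues Irf1 was lower in spleen cDC1 by -2.05 (SE 0.40, adjusted p = 0.00727) and in spleen T-bet- cDC2 by -1.63 (SE 0.43, adjusted p = 0.0401), with -1.31 in T-bet+ cDC2 (adjusted p = 0.0839).

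Most genes of a list induced by type I interferon read lower in cDC1. Of 14 interferon-stimulated genes, 9 were lower and 1 higher in spleen cDC1 than in T-bet+ cDC2, and 8 were lower and 1 higher than in T-bet- cDC2, with medians of -2.75 and -2.41. Over all genes 9.97% and 9.65% were called lower in these comparisons and 8.2% and 6.2% higher. Rtp4 was lower by -6.54 and -6.25 on the log2 scale (SE 0.35 in both), and Ifit3, of an antiviral family, by -4.37 and -3.72 (SE 0.29 in both). Of 12 genes induced by interferon gamma, 2 were higher and 2 lower against T-bet+ cDC2 and 1 higher and 3 lower against T-bet- cDC2, with medians of 0.27 and -0.25. Against T-bet+ cDC2 Cxcl9, a chemokine for activated T cells, was higher by 6.13 (SE 0.30), and Gbp7, a guanylate-binding protein, was lower by -5.08 (SE 0.49). Between tissues 12, 4 and 5 of the 14 and 8, 4 and 6 of the 12 were lower in spleen, in cDC1, T-bet- and T-bet+ cDC2, and none was higher. The shares of all genes called lower in spleen were 7.75%, 4.36% and 3.79%.

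Genes of uptake and trafficking in cross-presentation were called in both directions. Of 18 such genes, 5 were higher and 4 lower in spleen cDC1 than in T-bet+ cDC2, and 6 and 4 against T-bet- cDC2. Over all genes 8.2% and 6.2% were called higher in these comparisons and 9.97% and 9.65% lower. Clec9a, the receptor for dead cells, read 148, 188 and 205 CPM in spleen cDC1 and 1.95 to 9.20 in T-bet- cDC2, and Ly75, the uptake receptor DEC-205, read 124, 268 and 415 against 14.8 to 41.4. Cybb, the catalytic subunit of the phagosomal NADPH oxidase, read 4.78, 8.52 and 16.5 in cDC1 and 317 to 1500 in the cDC2 libraries, and Fcer1g, the Fc receptor gamma chain, 14.4 to 20.6 against 554 to 1200. Clec9a is also among the markers that define cDC1, so its difference is no finding. Of 7 other BEACH genes, 2 were higher and 2 lower against T-bet+ cDC2 and 3 and 2 against T-bet- cDC2. Nbeal2, known for platelet granules, was higher by 1.86 (SE 0.32, edgeR adjusted p = 0.00294), and Lyst, the lysosomal trafficking regulator, lower by -1.86 (SE 0.37, adjusted p = 0.00714). Nbea had 0 counts in all 3 spleen cDC1 libraries and 3 to 35 in the cDC2 libraries, too few for a fold.

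Chromatin was measured in spleen only, with 7270164 to 10081555 window counts per library. To be called, a window had to change by more than 0.5 on the log2 scale in either direction, with an adjusted p below 0.01. Of the 79 windows 77 passed the filter on low counts. Called were 10 of them for cDC1 against T-bet+ (8 more accessible in cDC1), 15 for cDC1 against T-bet- (10 more accessible) and 4 for T-bet+ against T-bet- cDC2 (3 more accessible in T-bet+), where 23%, 17.9% and 6.28% of all windows were called. As shares of the 77 these were 13%, 19.5% and 5.19%, the first below the background and the others near it. Without either cDC1 library 4 were called against T-bet+ cDC2, and without either T-bet- library or T-bet+ replicate 1, 2 were called between the cDC2 subsets. Neighbouring windows overlap and share reads. All but 1 of the called windows lay at Wdfy4 or B2m.

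Wdfy4 held 20 windows, none within 2000 bases of its start, of which 8, 9 and 3 were called in the 3 comparisons, each more accessible in the first-named subset. The first 3 sequences below are the windows with the smallest adjusted p against T-bet- cDC2, leaving out 1 that overlaps the second, and the fourth holds the interferon element. They are written on the plus strand of GRCm38 while the gene runs on the minus strand. Capitals mark motif letters: PU.1 (GAGGAAGT) in the first, Runx (TGTGGTT) and C/EBP (TTGCNNAA), which share a base, in the second, none in the third, and AP-1 (TGANTCA) and the interferon element in the fourth.
Wdfy4, chr14:33161295-33161444: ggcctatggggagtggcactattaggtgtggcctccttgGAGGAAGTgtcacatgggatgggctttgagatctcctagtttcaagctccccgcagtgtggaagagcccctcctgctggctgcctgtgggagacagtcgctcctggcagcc
Wdfy4, chr14:33172080-33172229: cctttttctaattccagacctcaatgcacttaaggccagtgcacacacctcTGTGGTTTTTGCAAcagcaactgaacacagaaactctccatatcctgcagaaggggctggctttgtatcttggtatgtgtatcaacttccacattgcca
Wdfy4, chr14:33163020-33163169: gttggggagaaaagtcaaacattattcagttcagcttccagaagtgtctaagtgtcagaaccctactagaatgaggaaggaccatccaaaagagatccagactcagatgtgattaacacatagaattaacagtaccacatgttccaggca
Wdfy4, chr14:33160407-33160556: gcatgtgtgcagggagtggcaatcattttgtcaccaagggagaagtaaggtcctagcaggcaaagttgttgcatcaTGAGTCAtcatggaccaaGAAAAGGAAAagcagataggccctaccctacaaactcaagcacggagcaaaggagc

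In all, 9 motifs were searched on both strands. Of all windows, 5.5% held PU.1, 5.23% Runx, 5.89% C/EBP and 7.9% AP-1 letters, against 3, 10, 5 and 3 of the 79. The others were the composite GGAANNGAAA of PU.1 and IRF (3.19% of all windows, 1 of the 79), which can overlap the interferon element, GAS TTCNNNGAA (4.29%, 6), NF-kB GGGANTTTCC (0.433%, 1) and CRE TGACGNNA (2.09%, 3).

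The window at 33161295, 24139 bases into the gene in an intron, had the largest change against T-bet- cDC2. It gave 9.62 and 11.6 CPM in cDC1, 3.48 and 1.99 in T-bet+ and 0.740 and 1.01 in T-bet- cDC2. It set the 3 subsets apart without overlap, but its change between T-bet+ and T-bet- cDC2 was not called. It was more accessible in cDC1 by 3.56 (SE 0.40, 95% interval 2.77 to 4.35, edgeR adjusted p = 2.87e-11) against T-bet- and by 1.96 (SE 0.33, adjusted p = 1.52e-06) against T-bet+ cDC2, where a window over an exon, 52208 bases into the gene, gave 2.00 (SE 0.60, adjusted p = 0.00601). The window at 33172080, 13354 bases into the gene, gave 17.8 and 18.5 in cDC1, 9.35 and 10.6 in T-bet+ and 4.07 and 3.54 CPM in T-bet- cDC2. It was called in all 3 comparisons, at 2.26, 0.87 and 1.39 (SE 0.26, 0.23 and 0.27). The window at 33163020 gave 13.1 and 15.4, 7.61 and 5.23, and 3.08 and 3.44 CPM in the same order, called at 2.11 and 1.15 for cDC1 (SE 0.29 and 0.26). The order of the subsets was cDC1, T-bet+ and T-bet- in all 3 windows, which were picked by their change between cDC1 and T-bet- cDC2. Of these, only the window at 33172080 was called between T-bet+ and T-bet- cDC2. The window with the interferon element gave 4.75 and 6.79 CPM in cDC1, 3.37 and 1.78 in T-bet+ and 2.47 and 2.94 in T-bet- cDC2, called only against T-bet+ cDC2 at 1.16 (SE 0.36, edgeR adjusted p = 0.00935). That call was lost with DESeq2, with no filter, with the replicate block and without T-bet+ replicate 2 or either cDC1 library (highest adjusted p = 0.182).

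At B2m both the RNA and the accessibility were lower in cDC1 than in T-bet- cDC2. Of its 7 windows 5 were less accessible in cDC1 than in T-bet- cDC2 and 2 than in T-bet+ cDC2, and 1 was less accessible in T-bet+ than in T-bet- cDC2. The stretch up to the gene start from the promoter window and the window with the largest change are shown on the plus strand, which is that of the gene. Neither holds letters of the 9 motifs.
B2m, chr2:122147563-122147685: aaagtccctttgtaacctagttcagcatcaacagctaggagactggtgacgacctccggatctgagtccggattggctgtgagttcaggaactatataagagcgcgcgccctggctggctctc
B2m, chr2:122146771-122146920: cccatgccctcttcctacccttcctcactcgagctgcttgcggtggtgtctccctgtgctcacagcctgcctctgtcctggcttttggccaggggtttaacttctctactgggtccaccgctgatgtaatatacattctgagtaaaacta

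The promoter window gave 35.5 and 40.7 CPM in cDC1, 66.7 and 56.4 in T-bet+ and 65.3 and 53.6 in T-bet- cDC2, with the 2 cDC2 subsets level. It was less accessible in cDC1 by -0.64 (SE 0.16, edgeR adjusted p = 0.00127) against T-bet- and -0.69 (SE 0.16, adjusted p = 0.000354) against T-bet+ cDC2. The upstream window, centred 841 bases before the start, gave 1.66 and 2.48 in cDC1, 4.35 and 3.97 in T-bet+ and 9.12 and 10.1 CPM in T-bet- cDC2. It fell in steps from T-bet- to T-bet+ to cDC1: -2.22 (SE 0.34, adjusted p = 2.73e-07) for cDC1 and -1.21 (SE 0.30, adjusted p = 0.0031) for T-bet+ against T-bet- cDC2, while -1.01 between cDC1 and T-bet+ cDC2 did not pass (adjusted p = 0.0278).

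**Figure D4:**
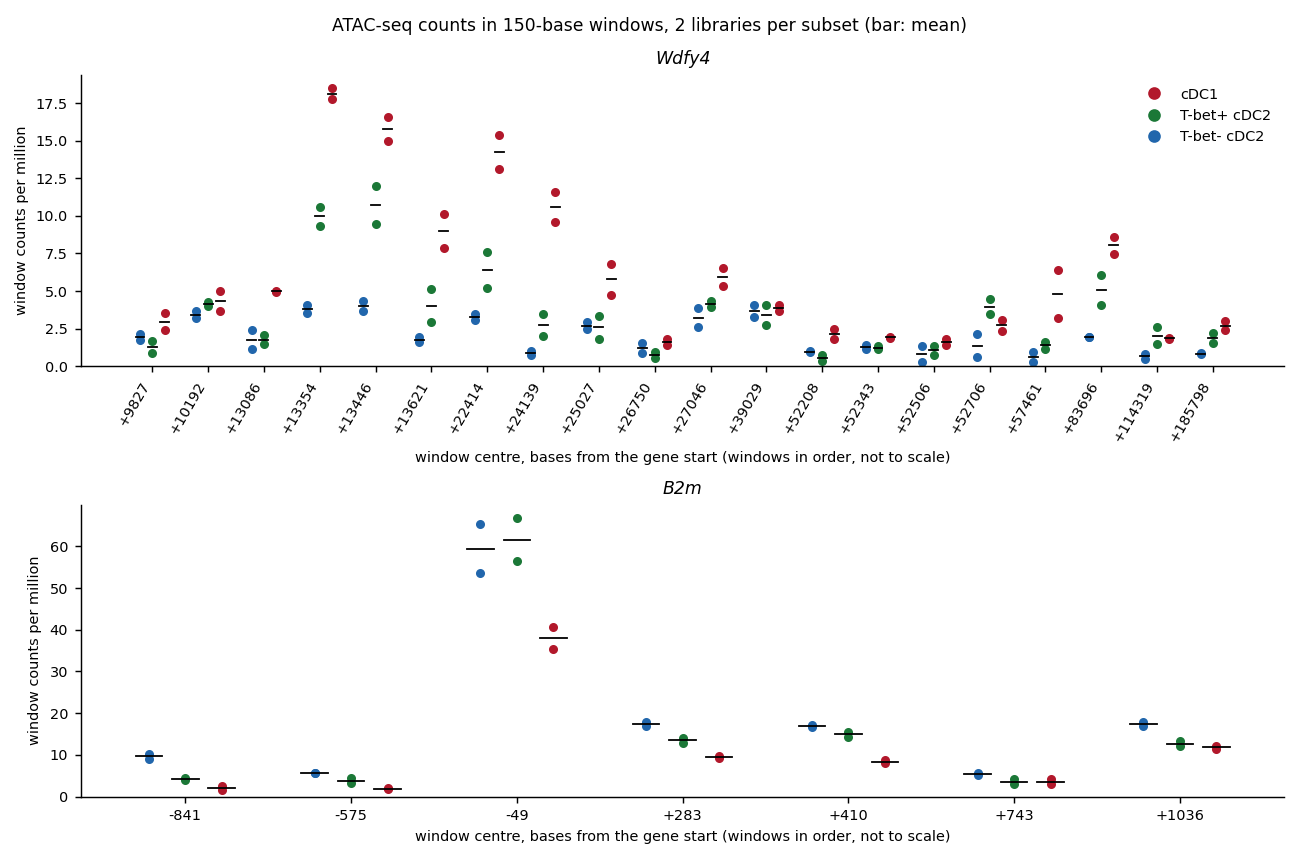
ATAC level in CPM in each library (vertical axes; points, 2 libraries a subset) for windows at Wdfy4 and B2m. The Wdfy4 windows 24139, 22414 and 13354 bases into the gene rise from T-bet- to T-bet+ cDC2 to cDC1, unlike some of the others. They were picked by their change between cDC1 and T-bet- cDC2. The B2m window upstream of the start falls in the same order, from 9.12 and 10.1 to 1.66 and 2.48.

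The remaining called window lay at Tapbpl, centred 106 bases after its start over both interferon matches shown above. It gave 20.6 and 23.5 CPM in cDC1, 17.5 and 14.7 in T-bet+ and 12.6 and 11.7 in T-bet- cDC2, a rise of 0.86 (SE 0.21, edgeR adjusted p = 0.00106) against T-bet- and 0.45 (adjusted p = 0.0875, not called) against T-bet+ cDC2. Of 44 windows tested at Tap1, Tap2, Tapbp, Psmb8, Psmb9, Psmb10 and Sec22b, edgeR and DESeq2 called 0 in any comparison, with 5, 5 and 0 at an unadjusted p under 0.05 in the 3 comparisons. The smallest edgeR adjusted p were 0.0119 at Tap2 and 0.0133 at Tapbp. For Tap1, Tap2 and Psmb9 the RNA was called higher in spleen cDC1 while no window at the locus passed, but the thresholds were unlike. RNA needed an adjusted p under 0.05 with 3 libraries a subset. Windows needed one under 0.01 and a change over 0.5 with 2 libraries a subset. The 0.0119 at Tap2 lies under the RNA threshold. Counted over whole peaks, 6, 9 and 3 were called in the 3 comparisons, and DESeq2 called 3, 13 and 2 windows.

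**Figure D5:**
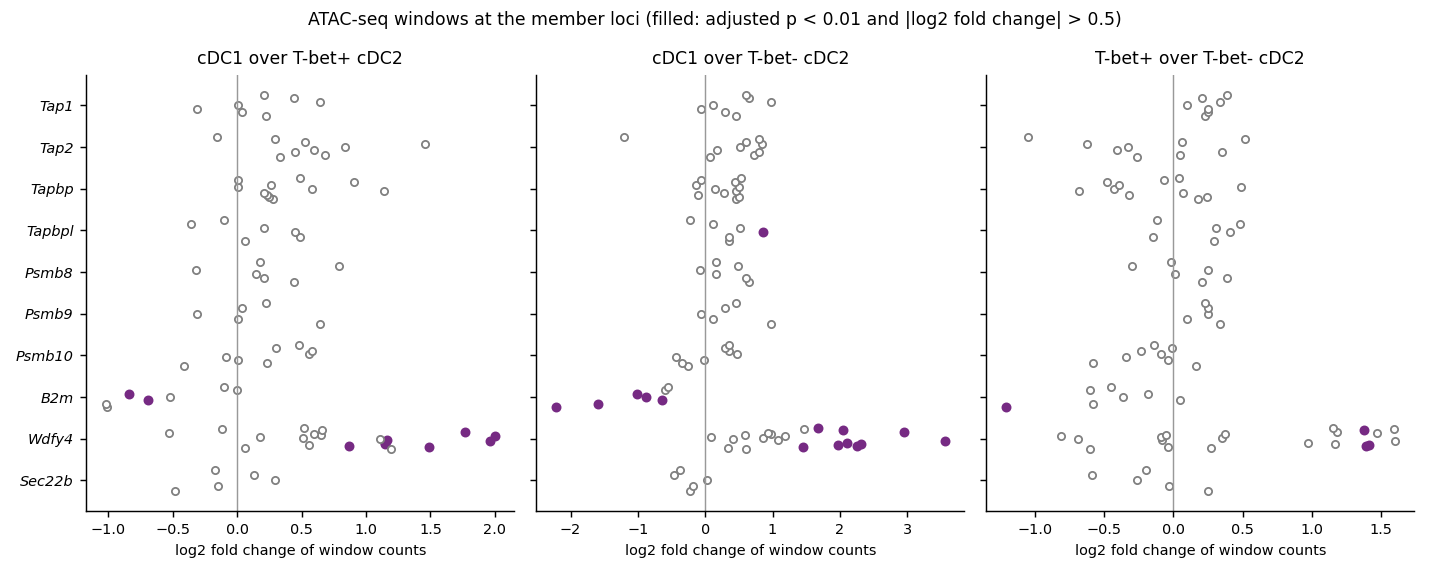
Log2 fold change of accessibility of each window at the 10 loci (horizontal axis), by gene (vertical axis), for the subset comparisons, with called windows marked. At Wdfy4 the changes of cDC1 against T-bet- cDC2 run from 0.09 to 3.56 and at B2m from -2.22 to -0.55, while at Psmb8 they stay between -0.07 and 0.65.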

How the data were processed

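The counts per gene and per chromatin window or peak were deposited by the authors, per the labels and the study's methods after alignment to mm10 (GRCm38). The submitters' processing notes name HISAT2 2.1.0, Bowtie2 2.2.5, SAMtools 1.9, MACS2 2.1.1.20160309 and R 3.4.0. RNA libraries held 20993220 to 29006549 counts and ATAC libraries 7270164 to 10081555 window counts. Every count column matched a label. One sentence of the methods swaps the reporter sign of the cDC2 subsets, and the labels were followed. Counts were tested with edgeR 4.0.16 (quasi-likelihood, TMM, its default filter, limma 3.58.1, R 4.3.3) with Benjamini-Hochberg adjustment over all genes or windows: 1 fit for each tissue, 1 of all 16 libraries for tissue comparisons and 1 for ATAC. The procedure was tested on simulated data. RPKM used the exon-union length. Alternatives were DESeq2 1.42.0, other scalings, filters and fits, a replicate block, and leaving out each library. Deviations from the group means correlated at 0.40, 0.22 and 0.18 between same-numbered spleen T-bet+ and cDC1 libraries, against -0.38 to 0.15 between differently numbered ones. Spleen T-bet- libraries gave -0.72 to -0.06 with same-numbered libraries of either, and up to 0.81 with differently numbered ones. Same-numbered MLN libraries gave -0.15 to 0.64 and differently numbered ones -0.64 to 0.43. The names of the MLN T-bet- libraries carry other numbers than their titles. The titles' numbers were used, also in the replicate block, so the MLN block rests on that choice. The labels do not say what a replicate number marks, so these values do not settle whether libraries were paired. The main fit had no block, and blocked values are given where a call changed. A window belonged to a gene when its centre lay from 2000 bases before the start to its end. All 10 genes are named. Of each pathway list the genes named are the called ones with the largest changes in spleen cDC1, up to 4, with lists of 3 or fewer genes, Psmb5, Psmb6, Psmb7, Nlrc5, Irf1 and Irf8 named always. The members and lists were chosen with earlier results of these data known. The summed level of 1 marker list is not reported here.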

Additional observations from a re-analysis of the deposited data

Results flagged for a closer look

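The change of 2 listed genes between subsets differed between spleen and MLN by the test of that difference. Cd1d1 encodes the class I-like chain that pairs with beta-2 microglobulin and presents lipids. It read 258, 237 and 325 CPM in spleen cDC1 and 78.7, 71.2 and 60.2 in spleen T-bet- cDC2, but 136, 197 and 200 in MLN cDC1 and 1250 and 739 in MLN T-bet- cDC2. It was thus higher in cDC1 in spleen (1.96, edgeR adjusted p = 0.000236) and lower in MLN (-2.56, adjusted p = 0.0478), a difference of 4.45 (SE 0.62, adjusted p = 0.0154). It was called in 15 of 22 alternatives, between 4.07 and 4.82, and lost with the replicate block or without MLN T-bet- replicate 1, MLN cDC1 replicate 2 or 3, spleen T-bet- replicate 2 or 3 or spleen cDC1 replicate 1 (highest adjusted p = 0.155). MLN T-bet+ cDC2 gave 172 and 834 CPM, the lower value in the library low in mature migratory markers, whose part was not tested.

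Oas1a, an interferon-stimulated antiviral enzyme, was lower in cDC1 than in T-bet+ cDC2 by more in spleen (-5.18, edgeR adjusted p = 8.5e-06) than in MLN (-2.27, adjusted p = 0.0108), a difference of -2.92 (SE 0.47, adjusted p = 0.0413). Its level was 2.37 CPM or less in the 3 spleen cDC1 libraries and 70.4, 71.7 and 66.2 in spleen T-bet+ cDC2, against 15.5, 7.98 and 10.7 in MLN cDC1 and 65.6 and 42.9 in MLN T-bet+ cDC2. The difference was called in 9 of 22 alternatives, between -3.20 and -2.60, with a highest adjusted p of 0.144. It was lost with the replicate block and without any 1 spleen library other than T-bet- replicate 3, either MLN T-bet- library, MLN T-bet+ replicate 2 or MLN cDC1 replicate 3.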

How the results depend on the processing

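Of 369 values of called genes under the alternatives 321 were still called, 48 kept their sign without a call and 0 reversed, and of 348 values of called windows the numbers were 279, 69 and 0. Counts of called genes that moved over 1.5 times were these. DESeq2 gave 4 and 2 for MLN cDC1 against T-bet+ and T-bet- cDC2, 5, 2 and 5 for spleen against MLN in cDC1, T-bet+ and T-bet- cDC2, and 3 and 2 windows for cDC1 against T-bet+ and T-bet+ against T-bet- cDC2. With no filter the MLN counts were 4 and 2 and those of the tissues in cDC1 and T-bet+ cDC2 5 and 2, with the newer quasi-dispersion estimate 5 and 2 in those tissue comparisons and 1 in MLN against T-bet+ cDC2, and with DESeq2 size factors 2 for the tissues in T-bet+ cDC2. A fit of all 16 libraries gave 3 and 2 in MLN. Without the 2 MLN libraries low in mature markers, chosen after seeing the data, MLN gave 3 and 4. The tissues then gave 5 in cDC1 and 4 in T-bet+ cDC2. No share of all genes called is given for these alternative counts. A term for the GC kind of library called 1 gene, Wdfy4, between the spleen cDC2 subsets and 0 in MLN against T-bet- cDC2 (the latter added after seeing the data). Whole peaks gave 6 and 9 for cDC1 against T-bet+ and T-bet- cDC2. The replicate block gave 3 for spleen cDC1 against T-bet+ and 0 for MLN cDC1 against T-bet- cDC2. The other counts of called genes moved by at most 1.5 times under the block.

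Leaving out 1 library gave 2 to 7 and 6 to 8 called genes in spleen cDC1 against T-bet+ (2 without T-bet+ replicate 1 or 2) and T-bet- cDC2, 0 to 1 between the cDC2 subsets (1 without T-bet- replicate 3), 0 to 1 in both cDC1 comparisons of MLN, and 0 to 5, 0 to 3 and 1 to 4 for the tissues in cDC1, T-bet+ and T-bet- cDC2. Called windows ranged from 4 to 11, 10 to 15 and 2 to 6. A lone library of a group was then assumed to vary like the others. With 2 or 3 libraries a group, small differences were not detectable.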
